A study of Mus musculus with 6 samples.

Results

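The genes described here are 65 cell adhesion genes. Among them are cadherins, protocadherins and the giant cadherins of the Fat, Dchs and Celsr families. The others are catenins of the alpha and delta types and the neural adhesion molecules of the Ncam, contactin, Cadm, neurexin and neuroligin families. All 65 were chosen by symbol from the rows that name a single gene, with a level of at least 1 in the first or the second condition. They make up 65 of the 11722 single-symbol rows at that level, out of 12316 rows in all. The symbol pattern fits 125 protein-coding genes of the GENCODE M21 annotation, and 68 of these have a row of their own, of which 3 lie under the level of 1. Another row joins 37 symbols of the alpha and gamma protocadherin clusters and is no member. Matching genes with no row are not analysed here.

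RNA of mouse neural stem cells was compared after lentiviral delivery of a short hairpin RNA, in cells of CD-1 embryos at E14.5 bought from R&D Systems. The scrambled hairpin SHC002 was carried by 2 libraries, the Sox4 hairpin TRCN0000012078 by 2 and the Sox4 hairpin TRCN0000012080 by 2, each pair being duplicates from different passages. The design text speaks of 1 Sox4 hairpin while the labels name both, and which libraries entered the deposited comparison is not given in the sources used here. Every culture grew adherent with EGF and bFGF and was selected in 0.5 µg/mL puromycin, so the scrambled cells share the virus and the drug with the others. Sox4 is a SoxC transcription factor of neural and other progenitors. The deposited comparison holds 1 level per gene for a first and a second condition, whose names its header does not give, and its values per library are not analysed here. No direction below can therefore be read as an effect of a Sox4 hairpin. "Rose" and "fell" mean called by the authors' significance flag, at a q under 0.05, and higher or lower in the second condition. The header states no unit for the levels, and Cuffdiff usually writes FPKM, a measure per transcript length, in such columns. The depth behind each value is unknown, and the table gives no spread between libraries.

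Cadherins are calcium-dependent receptors that hold like cells together, and their intracellular tails bind catenins, which link the junction to actin. In the neural tube, N-cadherin junctions join radial glia at the ventricle, and further cadherins and protocadherins mark regions and cell groups. Fat and Dchs proteins bind each other across cell borders and act in tissue polarity and Hippo signalling, while Celsr proteins belong to the core of planar cell polarity. Ncam, contactins and Cadm proteins are immunoglobulin-type adhesion molecules of neurons and glia, and neurexins bind neuroligins across the synapse.

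Of the 65 genes, 6 rose, 2 fell and 57 were not called. Those that rose were Fat1, Fat4, Celsr2, Celsr3, Cdh4 and Pcdh19, and those that fell were Cntn4 and Cadm2. The rises are 9.23% of the members, against 3.26% of the 11722 genes at 1 or more, and the falls are 3.08%, against 1.86%. A positive fold was found for 30 members, or 46.2%, against 50.2% of those genes. With a pseudocount of 1 the median log2 ratio was -0.04 for the members and 0.00 for all genes at 1 or more. It was 0.06 for the 47 members outside the beta protocadherin cluster, so the sign of the median turned on that cluster. These counts describe the members, which were not tested as a set. In these bulk samples fewer cells of a type and less RNA per cell cannot be told apart.

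**Figure D1:**
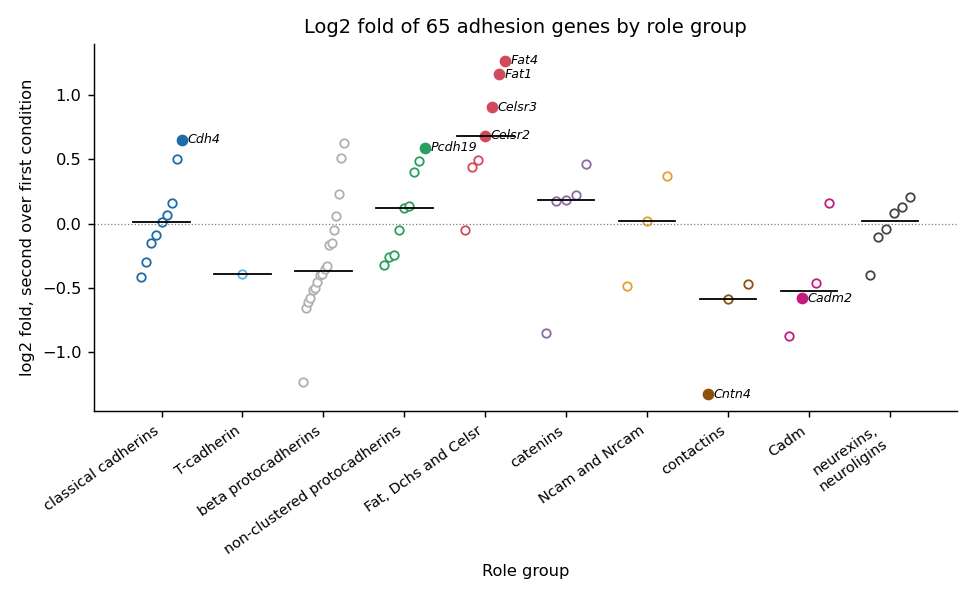
Log2 fold of second over first condition for the 65 genes, 1 point per gene, by role group; filled points are called by the authors, open points are not, and bars are medians of the group. The Fat, Dchs and Celsr genes have the highest median of the groups, 0.68, and the 3 contactins lie below 0.

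Fat1 and Fat4, which encode giant cadherins with long rows of extracellular repeats, had the largest rises of the members. Fat1 rose from 19.8 to 44.2 by the authors' deposited table, which is 2.24-fold, at log2 fold 1.16 and q 0.00304. Fat4, the receptor partner of Dchs1, rose from 1.92 to 4.62 by the authors' deposited table, which is 2.41-fold, at the same q. Their p of 5e-05 is the lowest that occurs and is shared by 230 rows, so it ranks neither above the other. Fat1 lies on chromosome 8, 44935447 to 45052257, plus strand, with a longest transcript of 14814 nt in 27 exons. Fat4 lies on chromosome 3, 38886940 to 39011985, plus strand, with 16109 nt in 17 exons. Both genes overlap antisense transcripts, Gm2366 for Fat1 and C230034O21Rik and Gm43539 for Fat4. Unless strand entered the counting, reads of a gene and its antisense partner cannot be told apart.

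The Celsr genes, seven-pass cadherins of planar polarity, did not all move. Celsr2 rose from 6.43 to 10.3 by the authors' deposited table, at log2 fold 0.68 and q 0.00708. Celsr3 rose from 0.614 to 1.15 by the authors' deposited table, at log2 fold 0.91 and q 0.0292. Celsr2 lies on chromosome 3, 108390851 to 108415552, minus strand, and Celsr3 on chromosome 9, 108826320 to 108852969, plus strand, with an exon that overlaps the microRNA gene Gm23156. Celsr3 is a member only through its level in the second condition, and its log2 fold is 0.41 with a pseudocount of 1. Celsr1 stood at 5.73 and 5.54 by the authors' deposited table, with a q of 0.947. Whether the folds of the Celsr genes differ from each other was not tested.

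Dchs1, the ligand of Fat4, stood at 11.2 and 15.8 by the authors' deposited table, at log2 fold 0.50 and q 0.0963. Fat3, a relative expressed in neurons, stood at 1.997 and 2.71 by the authors' deposited table, with a q of 0.246. Neither was called. In all, 4 of the 7 Fat, Dchs and Celsr genes rose and 0 fell, and 6 had a positive fold, with a median log2 ratio of 0.46. Their levels summed to 47.7 in the first condition and 84.4 in the second. Of the other 58 members, 2 rose, or 3.45%.

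Cdh4, which encodes R-cadherin, a classical cadherin of the same type I class as N-cadherin, rose from 40.8 to 64.1 by the authors' deposited table, at log2 fold 0.65 and q 0.00708. It lies on chromosome 2, 179442431 to 179899373, plus strand, and shares no exon with another gene. N-cadherin itself, Cdh2, was the second most abundant member by mean level and stood at 120.0 and 108.2 by the authors' deposited table, with a q of 0.763. The 7 type II cadherin genes held 0 calls, with 1 higher and 1 lower at an unadjusted p under 0.05. These were Cdh22, at 11.9 and 16.9, and Cdh10, at 13.8 and 10.4, by the authors' deposited table. Cdh20, the most abundant of the type II genes, stood at 44.5 and 49.9 by the authors' deposited table. Cdh6, Cdh11, Cdh19 and Cdh24 had log2 folds between -0.30 and 0.07 by the authors' deposited table. Cdh13 encodes T-cadherin, which lacks the intracellular tail and is held by a lipid anchor. It stood at 81.3 and 61.9 by the authors' deposited table, with an unadjusted p of 0.0386 and a q of 0.270, and was not called.

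Among the 9 non-clustered protocadherins 1 rose and 0 fell. Pcdh19, an X-linked gene whose loss in people causes a form of epilepsy, rose from 5.12 to 7.71 by the authors' deposited table, at log2 fold 0.59 and q 0.0442. It lies on chromosome X, 133582860 to 133688987, minus strand, and its exons overlap those of Gm26851 on the other strand. Pcdh18 stood at 2.94 and 4.13 and Pcdh7 at 10.8 and 14.3 by the authors' deposited table, each with an unadjusted p under 0.05 and no call. Pcdh10 was the most abundant of the group at 61.6 and 51.4 by the authors' deposited table, with a q of 0.532. Pcdh15, known from the tip links of inner ear hair cells, stood at 19.7 and 19.0 by the authors' deposited table. Pcdh1, Pcdh9, Pcdh11x and Pcdh17 had log2 folds from -0.32 to 0.13 by the authors' deposited table.

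**Figure D2:**
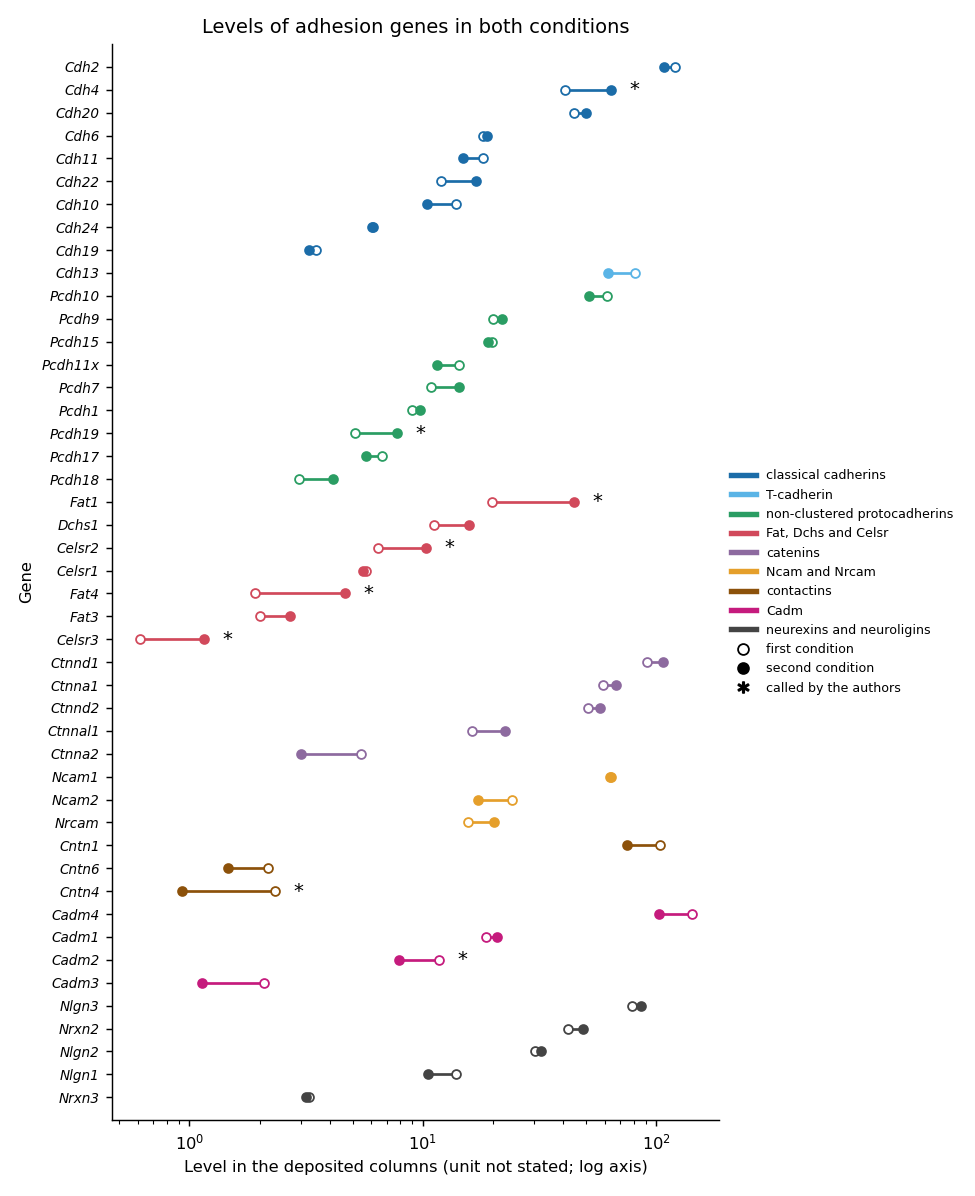
Levels of members outside the beta protocadherin cluster on a log axis, in the unit of the deposited columns, 1 row per gene; open circles are the first and filled circles the second condition, colours give the role group and asterisks mark calls. Calls fall on genes from a level of 0.614 in Celsr3 to 64.1 in Cdh4, while Cadm4, the highest gene, is not called.

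The contactins are immunoglobulin proteins tied to the membrane by a lipid anchor, and all 3 had lower levels in the second condition. Cntn4 fell from 2.32 to 0.925 by the authors' deposited table, 2.51-fold, with a log2 fold of -1.33 and a q of 0.00304. With a pseudocount of 1 its log2 ratio is -0.79. Cntn4 lies on chromosome 6, 105677660 to 106699310, plus strand. Cntn1, the abundant contactin, stood at 103.7 and 74.9 by the authors' deposited table, with an unadjusted p of 0.00995 and a q of 0.127. Cntn6 stood at 2.18 and 1.46 by the authors' deposited table, with a p of 0.05. Neither Cntn1 nor Cntn6 was called.

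Cadm genes encode nectin-like adhesion molecules, also known as SynCAMs, and 3 of the 4 had lower levels in the second condition. Cadm2 fell from 11.8 to 7.87 by the authors' deposited table, at log2 fold -0.58 and q 0.0485, just under the threshold. It lies on chromosome 16, 66655421 to 67620908, minus strand, and its exons overlap the antisense gene 1700010K23Rik, which stood at 2.95 and 2.06 by the authors' deposited table, uncalled. Cadm4, a glial member and the most abundant of the 65 genes, stood at 141.7 and 102.7 by the authors' deposited table, with a q of 0.120. Cadm3 stood at 2.08 and 1.14 by the authors' deposited table, with a q of 0.0758, and its exons overlap those of Ackr1. Cadm1 went the other way, at 18.6 and 20.8 by the authors' deposited table, with a q of 0.761.

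The upstream sequence is shown for called members whose window lies outside annotated exons, since rises and falls stand side by side here and a reader may compare them. RefSeq promoter windows on GRCm38.p6, the assembly of mm10, were found for 32 of the 65 members, and for all 8 called members except Cdh4. The 250 bases before the start site were searched on both strands for the Sox core motifs AACAAT and ACAAAG and for the E-box CANNTG, the site of basic helix-loop-helix factors. Capitals mark matches, in these lines all of the E-box, and each line runs 5′ to 3′ on the gene's strand. Celsr2 (chr3:108415580-108415829, minus strand), Celsr3 (chr9:108825795-108826044, plus strand) and Pcdh19 (chrX:133688994-133689243, minus strand) rose, and Cadm2 (chr16:67620909-67621158, minus strand) and Cntn4 (chr6:106118515-106118764, plus strand) fell. The windows of Celsr2, Celsr3 and Cadm2 overlap no GENCODE gene, that of Pcdh19 lies in an intron of Gm26851, and that of Cntn4 lies in an intron of Cntn4 itself.
Celsr2: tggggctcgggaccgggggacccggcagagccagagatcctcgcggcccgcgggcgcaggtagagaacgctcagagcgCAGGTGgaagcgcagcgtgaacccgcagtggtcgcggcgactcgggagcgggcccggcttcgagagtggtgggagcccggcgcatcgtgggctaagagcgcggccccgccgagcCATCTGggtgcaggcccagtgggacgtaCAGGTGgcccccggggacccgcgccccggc
Celsr3: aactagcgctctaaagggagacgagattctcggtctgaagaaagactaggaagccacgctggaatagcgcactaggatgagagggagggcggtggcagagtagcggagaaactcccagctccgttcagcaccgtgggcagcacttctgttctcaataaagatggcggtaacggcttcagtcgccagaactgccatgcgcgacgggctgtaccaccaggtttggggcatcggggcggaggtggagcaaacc
Pcdh19: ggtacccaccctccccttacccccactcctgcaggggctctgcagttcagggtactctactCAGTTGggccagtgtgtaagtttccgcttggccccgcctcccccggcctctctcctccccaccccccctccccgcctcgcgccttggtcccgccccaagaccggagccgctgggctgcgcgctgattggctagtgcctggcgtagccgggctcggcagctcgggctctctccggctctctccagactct
Cadm2: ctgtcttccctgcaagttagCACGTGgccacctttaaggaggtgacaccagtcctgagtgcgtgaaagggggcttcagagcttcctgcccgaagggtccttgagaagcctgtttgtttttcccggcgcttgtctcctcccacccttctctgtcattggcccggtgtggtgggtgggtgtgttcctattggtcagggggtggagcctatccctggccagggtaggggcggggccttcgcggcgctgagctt
Cntn4: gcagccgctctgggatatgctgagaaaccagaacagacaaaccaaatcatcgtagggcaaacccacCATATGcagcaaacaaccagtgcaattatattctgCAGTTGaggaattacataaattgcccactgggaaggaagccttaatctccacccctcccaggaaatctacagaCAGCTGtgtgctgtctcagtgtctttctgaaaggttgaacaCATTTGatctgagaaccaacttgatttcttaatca

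The 5 windows hold 3, 0, 1, 1 and 4 E-boxes in the order shown and 0 matches to AACAAT or ACAAAG. An E-box was found in 66.2% of all 32851 promoter windows, so its presence sets none of these apart. The GC content in the order shown was 75.2%, 58.0%, 69.2%, 60.8% and 44.4%. The median was 52.4% over all windows and 60.4% over the windows of members. Of all promoter windows, 9.42% hold AACAAT and 16.5% hold ACAAAG. Among the 8 windows of the called members, the only match to either was an AACAAT in the window of Fat1, 202 bases before the start site. It is shown in capitals with 10 bases on each side (chr8:44949996-44950021, plus strand), a stretch that lies within an intron of Fat1 in GENCODE.
Fat1: tgcgcatgaaAACAATaacaaaagaa

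Ncam1, the classical neural cell adhesion molecule, stood at 63.03 and 63.9 by the authors' deposited table, with a q of 0.978. Its relative Ncam2 stood at 24.1 and 17.3, a log2 fold of -0.48, and Nrcam, a receptor of the L1 family, at 15.6 and 20.3, a log2 fold of 0.37, by the authors' deposited table. Both had an unadjusted p under 0.05 and neither was called. The 6 neurexin and neuroligin genes also held 0 calls, with 1 at an unadjusted p under 0.05. That gene was Nlgn1, at 13.9 and 10.5 by the authors' deposited table. Nlgn3 was the most abundant at 78.9 and 86.3 by the authors' deposited table. Nlgn2, Nrxn2 and Nrxn3 had log2 folds between -0.04 and 0.21 by the authors' deposited table.

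Catenins sit on the inner side of the junction. Of the 5 members, of the alpha and delta types, 0 were called, with 1 higher and 1 lower at an unadjusted p under 0.05. Beta-catenin is no member and was counted with the adherens junction partners below, where it was not called. Ctnnd1 encodes p120, which holds cadherins at the membrane, and stood at 91.3 and 106.7 by the authors' deposited table, with a q of 0.591. Ctnna1, the alpha-catenin of most tissues, stood at 59.3 and 67.3 by the authors' deposited table, with a q of 0.695, and its exons overlap those of Lrrtm2 on the other strand. Ctnna2, the neuronal alpha-catenin, stood at 5.45 and 3.02 by the authors' deposited table, at log2 fold -0.85 and q 0.109. Ctnnal1, an alpha-catenin-like gene, stood at 16.2 and 22.4 by the authors' deposited table, with a q of 0.153. Ctnnd2, a delta-catenin of neural tissue, stood at 50.96 and 57.5 by the authors' deposited table.

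Over all roles, 15 uncalled members had an unadjusted p under 0.05. Of these, 7 were higher, or 10.8% of the members against 6.73% of the genes at 1 or more, and 8 were lower, or 12.3% against 5.79%. The smallest absolute log2 fold that was called in the whole table was 0.55. The higher ones had log2 folds between 0.37 and 0.50 and the lower ones between -0.87 and -0.39 by the authors' deposited table.

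The 18 beta protocadherin genes, whose proteins combine at the cell surface into an identity code, held 0 calls and 0 members at an unadjusted p under 0.05. Each is a gene of 1 exon in the annotation, and the family holds many similar copies, so each level is uncertain where reads could be split between copies. Pcdhb11, the most abundant, stood at 14.1 and 10.7, and Pcdhb10 at 9.95 and 7.55, by the authors' deposited table. The largest negative folds were those of Pcdhb2, at log2 fold -1.23, and of Pcdhb8 and Pcdhb5, at -0.66 and -0.61, by the authors' deposited table. Pcdhb16 had the largest positive one, from 2.95 to 4.55 or log2 fold 0.62, followed by Pcdhb22 at 0.51, by the authors' deposited table. The exons of Pcdhb22 overlap those of Pcdhb21 on the same strand. Levels of the 18 lay between 0.957 and 14.1, and their p between 0.413 and 0.977. A negative fold was found for 14 of the 18, with a median log2 ratio of -0.25, and their levels summed to 65.1 in the first condition and 52.1 in the second. The row that joins 15 alpha and 22 gamma symbols of the neighbouring clusters stood at 556 and 576 by the authors' deposited table, with a log2 fold of 0.05 and a q of 0.957.

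The authors' test gave these 18 genes far smaller statistics for the size of their folds than it gave the other members. Pcdhb2 had a 2.35-fold lower level, from 3.46 to 1.47, with a statistic of -0.151 and an unadjusted p of 0.413 by the authors' deposited table. By contrast Cntn4, with a fold of similar size and levels of 2.32 and 0.925, had a statistic of -2.48 by the authors' deposited table. The log2 fold divided by the statistic ran from 2.91 to 10.2 for the beta genes and from 0.292 to 0.535 for the 47 other members. Over all genes at 1 or more the median of this ratio was 0.347 and the 95th percentile 0.939, and 4.50% of genes had a ratio of at least 1. All 18 beta genes, and 0 of the 47 other members, had a ratio of at least 1. The lack of calls in the cluster therefore does not show equal levels in both conditions.

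**Figure D3:**
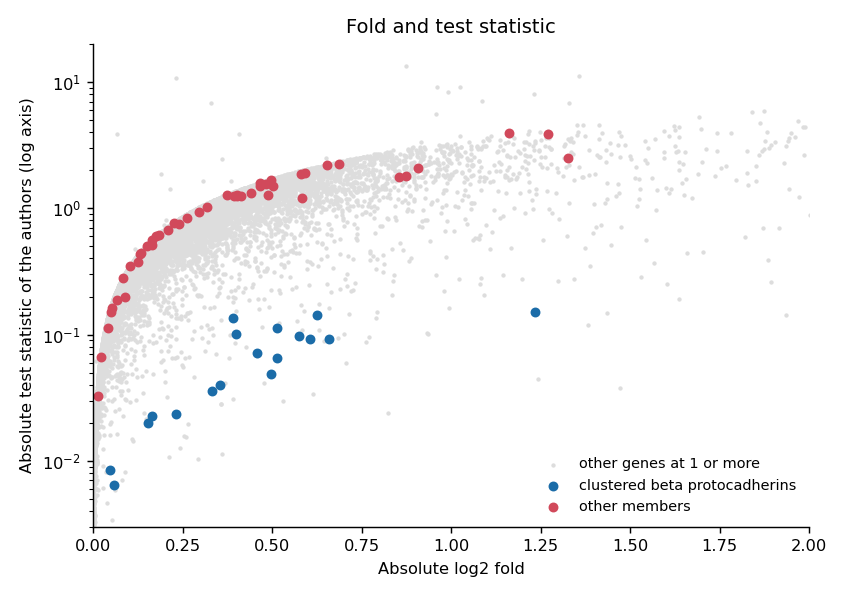
Absolute test statistic of the authors (log axis) against absolute log2 fold for each gene at 1 or more; blue points are the 18 beta protocadherins, red points the 47 other members and grey points other genes, of which 72 lie outside the axes. At a like fold the beta protocadherins have statistics under 0.152, and the other members lie where most grey points do.

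Transcript length moved with the calls. Of the 6 genes that rose, 5 are among the longest 10% of transcripts, those over 6855 nt, and the sixth, Cdh4, has 6388 nt. Of the 2 that fell, Cadm2 with 9564 nt is among them and Cntn4 with 5262 nt is not. Members are long as a group, with a median of 5568 nt against 3192 nt for all genes at 1 or more, and 21 of the 65, or 32.3%, are in the longest 10%. Over all genes, 13.7% of the longest 10% rose and 1.11% fell, against 2.10% and 1.94% of the others, which include genes of unknown length. Of the 21 longest members 5 rose, or 23.8%, and of the other 44 members 1 rose, or 2.27%. The part of length in the rises was not tested.

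The 7 Fat, Dchs and Celsr genes, of 10598 to 18760 nt, are all in the longest 10%. Of the 7, 4 rose, against 13.7% of all genes in the longest 10%. The median length of those genes is 8333 nt, below that of each of the 7, so this is no share at like length. A positive fold was found for 6 of them, and for 886 of the 1166 genes in the longest 10%. Among the 14 other members of the longest 10%, 1 rose, or 7.14%, and 1 fell. Their median log2 ratio was -0.15, while that of all 1166 genes in the longest 10% was 0.21. All 21 members of the longest 10% together had 10 positive and 11 negative folds, with a median log2 ratio of -0.03. Of the 14, 4 had a positive fold and 10 a negative one, against 886 and 280 of those 1166 genes. The positive ones were Pcdh19, which rose, and Pcdh7, Nlgn3 and Cdh6, which were not called. Of the negative ones Cadm2 fell and the other 9 were not called, among them the beta protocadherins Pcdhb14 and Pcdhb19. Setting the Fat, Dchs and Celsr genes apart was not planned, and the 14 were not tested against the other genes.

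**Figure D4:**
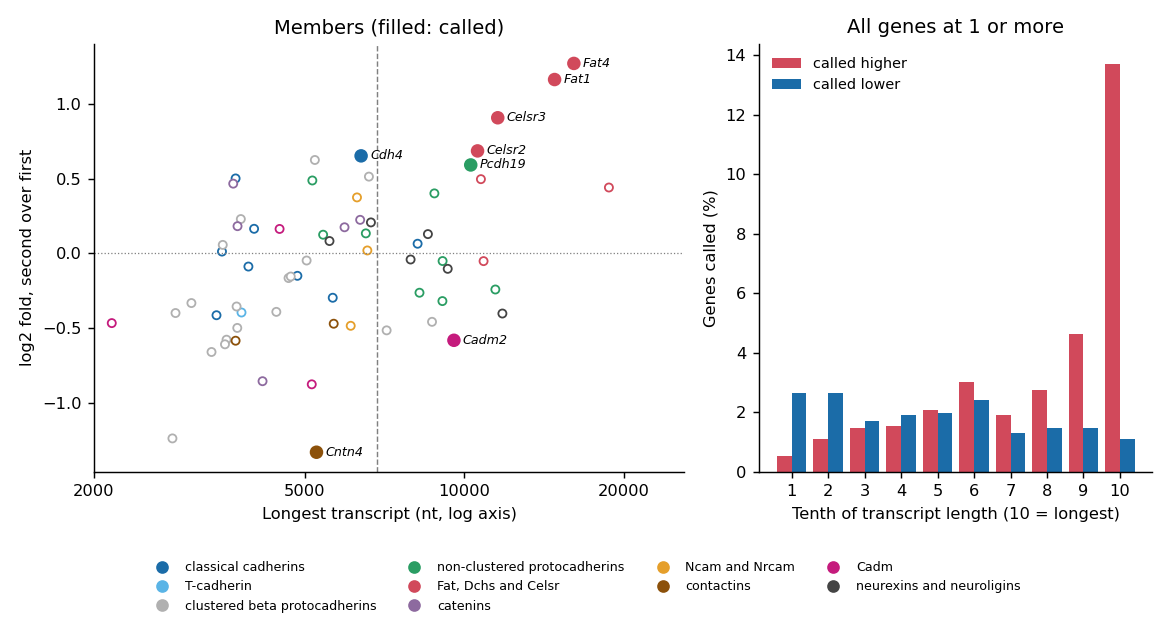
Left, log2 fold of each member against its longest transcript in nt (log axis), with colours for role groups, filled points for calls and a dashed line at 6855 nt; right, the percentage of all genes at 1 or more called higher (red) or lower (blue) in each of 10 groups of transcript length. The rise of called-higher genes to 13.7% in the longest group stands beside members of that group on both sides of 0.

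Other genes of cell adhesion were taken from lists of junction and polarity partners that hold no member. Over all genes at 1 or more, 3.26% rose and 1.86% fell, and the lists were not tested against these shares. Of 24 partners of the adherens junction 4 rose and 0 fell, with a median log2 ratio of 0.15. Ptprm, a receptor phosphatase that binds cadherins, rose from 6.90 to 11.8 by the authors' deposited table. Mllt4, which encodes afadin, the link of nectins to actin, rose from 9.23 to 15.3, and Iqgap1, a scaffold at junctions, from 7.34 to 13.1, by the authors' deposited table. Pvrl1, which encodes nectin-1, rose from 3.52 to 5.78 by the authors' deposited table. Of these 4, 2 are in the longest 10% of transcripts. Of 15 planar polarity partners 0 were called, with 1 at an unadjusted p under 0.05, and their median log2 ratio was 0.14. The Celsr genes that rose and the planar polarity genes that were not called were not tested against each other.

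The labelled cell type and possible other cells were checked with marker lists. Of 12 neural stem cell markers 11 were at 10 or more, among them Sox2 and Vim, with sums of 6211 and 4010 over the first and second condition. Of these, Nes and Notch1 rose, Fabp7 and Hes5 fell, and 7 were not called. A positive fold was found for 6 and a negative one for 5, with a median log2 ratio of 0.03. Fabp7, a lipid carrier abundant in radial glia, fell from 4620 to 2286 and Nes, an intermediate filament of progenitors, rose from 98.1 to 169.8 by the authors' deposited table. Fabp7 alone makes up most of both sums of the stem cell markers, so their drop does not describe the list. Genes listed as markers of other cell types also moved in this comparison: of 10 astrocyte markers 5 fell and 1 rose, with sums of 1705 and 1112. Of 7 measured oligodendrocyte lineage markers 2 fell, with sums of 1472 and 1259. Of 7 measured neuron markers 1 fell, with sums of 171 and 168. Most of the astrocyte, oligodendrocyte lineage and neuron sums comes from Aldoc, Olig1 and Map2 in turn, none of them called. These sums therefore do not describe their lists. A negative fold was found for 9 of the 10 astrocyte, 6 of the 7 oligodendrocyte lineage and 4 of the 7 neuron markers. Of 3 measured fibroblast markers 1 rose, Acta2, with sums of 31.8 and 59.6, and 0 of 6 endothelial and 0 of 7 microglial markers were among the rows at 1 or more. Of the fibroblast markers, Col1a1, Col1a2, Col3a1, Dcn, Lum and Pdgfrb were not among those rows either. Whether other cell types were present, and their part in the adhesion results, was not tested. Sox4 itself stood at 126.8 and 83.9 by the authors' deposited table, with a q of 0.0543, and was not called.

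The level of 1 that bounds the group fell between similar genes. Pcdhb3, at 0.957 and 1.12, and Celsr3 were just inside it, and Pcdhb15, at 0.583 and 0.990, was just outside, by the authors' deposited table. Cntn3, at 0.591 and 0.745, and Pcdh8, at 0.696 and 0.603, were the other genes left out, uncalled by the authors' deposited table. Celsr3, Cntn4 and Pcdhb3 reach 1 in a single condition only, so the called pair entered with the help of the condition where each is high. With a level of at least 1 in both conditions, 5 members rose and 1 fell.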

How the data were processed

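Poly(A) RNA of 6 libraries was sequenced after library preparation with the SOLiD kit for total RNA, per the labels' protocols. TopHat2 2.0.9, Cufflinks 2.2.1, Cuffdiff and the build mm10 are named in the submitters' processing notes. Which annotation and strand setting were used is not given in the sources used here. Per the file headers, the authors' deposited table holds a level of unstated unit in each of 2 conditions and the log2 fold of the second over the first. It also holds the authors' test statistic (a score), p-value, q-value and significance flag. Nothing was refitted, and the depth per library is unknown. The duplicates are passages of bought cells, so the authors' p-values cover the variation among these libraries only, and that may be technical.

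Members and lists were chosen with earlier results of these data known. Named were all called members, uncalled members with an unadjusted p under 0.05, the most abundant of each role group, Cdh2, Ctnna1 and Ncam1, the genes next to the level of 1, and called genes of the lists; further members are named in groups, and 1 member enters the counts but is not reported here by name. Computing used pandas 2.3.3, numpy 2.4.6, scipy 1.17.1 and matplotlib 3.10.9 under Python 3.11.15. Medians used log2 ratios with a pseudocount of 1. Positions, exons and longest transcripts (coding where there is one) came from GENCODE M21, with 11693 rows matched as written and 461 through an older name. Protein features that were planned were not run, because no protein sequences were used here. The counting steps and the Benjamini-Hochberg adjustment were tested on simulated data of 11722 genes, where 194 of 200 genes planted at a log2 fold of 1 in either direction were recovered. The simulated noise was equal for every gene and not taken from these data. The share recovered therefore says nothing of the sensitivity of the authors' test. Alternatives covered thresholds, level filters, recomputed q-values, repeated symbols, pseudocounts, centring and transcript length.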

Additional observations from a re-analysis of the deposited data

How the results depend on the processing

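The mean-level filter, the filter on both conditions, the length filter over all genes and the median without beta protocadherins were chosen after seeing the data. The split of members into Fat, Dchs and Celsr genes and the others was not planned either. Among the members, 6 rose and 2 fell; these counts were 4 and 1 at q up to 0.01, 2 and 1 where the absolute log2 fold also reached 1, 4 and 1 at a level of at least 5, 5 and 1 at a level of 1 in both conditions, and 1 and 1 without the longest 10% of transcripts. Over all genes at 1 or more, 382 rose and 218 fell; there the counts were 201 and 109 at q up to 0.01, 126 and 82 with that fold, and 222 and 205 without the longest 10%. Stricter thresholds call fewer genes by construction, and the length filter leaves fewer genes. With q recomputed over genes at 1 or more, all 8 called members were shared and none was gained. Leaving out repeated symbols removed no member, so it tests nothing here. The median log2 ratio of members lay between -0.05 and 0.06 under its 5 alternatives and changed sign at a level of at least 5 and without the beta genes. Of 30 named folds, 0 changed sign with a pseudocount or centring. A pseudocount cannot change a sign. Centring could not either, since it moved each log2 fold by only 0.001 and the smallest, that of Ncam1, was 0.02. A pseudocount of 1 moved Cadm3, Celsr3 and Cntn4 by over 1.5 times, to -0.53, 0.41 and -0.79. No paired analysis was possible because each condition has a single deposited level, and library values are not analysed here. Fits without 1 replicate could not be run either.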

Other observations

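Further adhesion genes outside the described families were taken from 2 lists, which were not tested against the 3.26% of all genes that rose and the 1.86% that fell. Of 24 other immunoglobulin adhesion genes 1 rose and 2 fell, and 8 had a positive and 16 a negative fold. Kirrel, a relative of nephrin, rose from 5.49 to 11.7 by the authors' deposited table. Dscaml1, a relative of the Down syndrome cell adhesion molecule, fell from 3.41 to 1.48, and Opcml, a lipid-anchored molecule of the IgLON family, from 6.69 to 3.996, by the authors' deposited table. This list had a median log2 ratio of -0.07, and 11 of its genes are in the longest 10% of transcripts.

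Of 22 other genes that organise synapses 4 rose and 0 fell, with a median log2 ratio of 0.09. Tenm3 and Tenm4, large teneurin receptors, rose from 1.68 to 3.39 and from 1.91 to 4.23 by the authors' deposited table. Lphn2, a latrophilin that binds teneurins, rose from 38.0 to 63.1, and Clstn2, a calsyntenin with cadherin repeats, from 4.45 to 7.64, by the authors' deposited table. Of these 4 genes, 2 are in the longest 10%, and the part of length was not tested.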
